A study of Schizosaccharomyces pombe with 18 samples.

Results

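Genes near both ends of chromosome III of the fission yeast Schizosaccharomyces pombe were followed in wild type (WT) and in strains that each lack 1 of 5 subunits of the SHREC silencing complex. A gene was taken when its midpoint lay at most 100 kb from either end of the chromosome. Of the 108 rows of the deposited gene table in these windows, 11 ribosomal RNA entries and the non-coding RNA SPNCRNA.1299 were set aside, and no gene of the wtf family lay there. This left 96 of the 7018 genes of the table, 49 at the left end and 47 at the right. The left end held 29 protein-coding genes, 18 non-coding RNAs, the pseudogene SPCP20C8.03 and 1 tRNA gene. The right end held 35 protein-coding genes, 11 non-coding RNAs and SPNCRNA.523, which had no match in the reference annotation. The outermost gene at the left was the non-coding RNA SPNCRNA.1094, 23.8 kb from the end by its midpoint, and at the right the uncharacterized protein gene SPCC569.01c, 17.3 kb from the end.

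Total RNA of 18 cultures was sequenced after removal of ribosomal RNA, 3 biological replicates for each of 6 genotypes, all of mating type h- and grown in YES medium at 25 °C. The clr1D strain is labelled clr1D::KanMX4 with ade6-210/216?, the question mark being the submitters' own. The clr2D strain is clr2D::his7+ with ade6-216, and the clr3D strain clr3D::kanMX6 with ade6-210. These 3 also carry arg3D and his3D. The mit1D strain is mit1D::Natmx6 and the chp2D strain chp2D::KanR, and both share ade6-210, arg3-D4 and his3-D1 with WT, which has no SHREC deletion. Every strain, WT included, carries leu1-32 and ura4-D18. Each genotype is 1 strain, and because the clr deletions list arg3 and his3 in another form than WT, mit1D and chp2D, strain background and deletion cannot be told apart for them. The libraries of WT and of the clr deletions share 1 label series. Those of mit1D and of chp2D carry other numbers, and mit1D and chp2D share no number. Label series and genotype therefore cannot be told apart when mit1D or chp2D is set against WT, or when they are set against each other.

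Read depth, recovered from the deposited values, lay between 26.17e6 and 101.85e6 reads per library. The deleted gene was lower in its own strain than in WT, at 2.41 scaled FPKM for clr1 in clr1D against 13.0 in WT, 4.93 in clr3D against 35.7 in WT for clr3, 0.0158 in mit1D against 13.5 in WT for mit1 and 4.08 in chp2D against 13.1 in WT for chp2. The clr2 gene was the exception in size, at 15.1 in clr2D against 19.8 in WT, and it stood at 27.1 in clr1D and 29.5 in clr3D. Of the markers of the labelled h- mating type, mfm1, mfm2, mfm3 and mam1 stood at 6.67, 98.5, 19.4 and 11.9 in WT. The pheromone receptor gene mam2 stood at 19.9 in WT, while mat1-Mc was at or near 0 in every group. The markers map1, map2 and map3 of the other mating type were also present in WT, at 3.42, 35.2 and 21.6, so these genes did not separate the mating types here. Each library is a whole culture, in which fewer cells that express a gene and less RNA per cell cannot be told apart.

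SHREC is a nuclear complex that keeps heterochromatin silent. Clr3 is its histone deacetylase, Mit1 a chromatin remodeler, Chp2 an HP1 protein that binds methylated histone H3, and Clr1 and Clr2 connect these parts within the complex. Fission yeast heterochromatin forms at centromeres, at the silent mating-type cassettes and next to telomeres. Chromosome III differs from the other chromosomes in that its ends carry the repeated ribosomal DNA, so the genes described here lie inward of those arrays.

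Genes close to both ends occur as similar copies, which bears on how their reads can be assigned. In the RefSeq assembly ASM294v3 the gene SPCP20C8.01c of the left end matched SPCC569.01c of the right end at 99.6% of 1126 aligned bases. SPCP20C8.02c matched SPCC569.02c at 93.9% over its length, and a stretch of 433 bases of the pseudogene SPCP20C8.03 matched SPCC569.03 at 93.3%. A stretch of 338 bases of SPCC1884.01 matched the right end at 93.2%, where SPCC569.05c and SPCC569.04 lie; the match of SPCC569.04 itself to SPCC1884.01 and SPNCRNA.1096 covered 222 bases at 92.3%. Over their length the non-coding RNAs meu3 and meu19 matched at 86.9%. The order along the chromosome is the same at both ends, with the first pair outermost and the meu RNAs innermost. How the authors' counting treated reads that fit both copies is not given in the sources used here, so for pairs this similar the values of the copies are not fully separate measurements. Stretches of 100 bases from 3 of the pairs show where the copies can be told apart, each the ungapped stretch whose number of differences came nearest to the mean of its pair; capitals mark the bases that differ between the members of a pair, each read 5′ to 3′ on the strand of the gene in ASM294v3.
SPCP20C8.01c, chrIII:29184-29283, minus strand: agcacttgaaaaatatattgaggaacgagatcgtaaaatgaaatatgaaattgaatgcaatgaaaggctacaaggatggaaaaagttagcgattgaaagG
SPCC569.01c, chrIII:2434831-2434930, plus strand: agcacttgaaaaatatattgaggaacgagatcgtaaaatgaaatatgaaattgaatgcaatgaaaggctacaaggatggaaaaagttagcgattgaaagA
SPCP20C8.02c, chrIII:31421-31520, minus strand: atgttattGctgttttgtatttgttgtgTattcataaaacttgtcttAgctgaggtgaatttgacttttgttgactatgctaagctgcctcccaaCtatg
SPCC569.02c, chrIII:2432612-2432711, plus strand: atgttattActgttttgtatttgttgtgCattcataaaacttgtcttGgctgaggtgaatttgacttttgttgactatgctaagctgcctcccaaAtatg
meu3, chrIII:42244-42343, minus strand: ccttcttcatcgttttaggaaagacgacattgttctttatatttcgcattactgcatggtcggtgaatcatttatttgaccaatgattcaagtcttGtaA
meu19, chrIII:2419433-2419532, plus strand: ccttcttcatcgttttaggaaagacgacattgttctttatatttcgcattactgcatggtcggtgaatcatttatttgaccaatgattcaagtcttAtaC
The first pair differs at 1 of these 100 bases, the second at 4 and the meu pair at 2, which is fewer than the average of that pair, whose gapped alignment of 722 bases was 89.9% identical. The members of each pair lie on opposite strands, so that each pair points the same way relative to its own chromosome end.

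In all 3 clr deletions many genes near these ends were higher than in WT, and the rises lay mostly toward the ends. A gene was called when its adjusted p (limma, Benjamini-Hochberg over 6693 genes) was under 0.05, with no minimum fold, and 94 of the 96 genes were abundant enough to be tested. In clr1D 36 of the 94 rose and 1 fell, where 17.6% of all genes tested were called, 9.31% as rises and 8.29% as falls. In clr2D 34 rose and 1 fell, against a background of 12.3% called, 7.31% risen and 4.99% fallen. In clr3D 33 rose and 6 fell, with 29.0% called, 14.9% risen and 14.1% fallen among all genes. The clr3D calls numbered 23, 21 of them rises, when only the clr3D and WT libraries were fitted. The median log2 fold change over the 94 genes was 0.11 in clr1D, 0.11 in clr2D and 0.10 in clr3D, beside medians of 0.00 over all genes tested in each. Most single changes were therefore small, and the largest log2 fold change of any of these genes was 1.80.

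In the mit1D and chp2D strains the shares of these genes called were nearer those of the whole table. In mit1D 19 of the 94 rose and 8 fell, where 27.2% of all genes tested were called, 14.7% as rises and 12.5% as falls. In chp2D 14 rose and 5 fell, beside 22.6% called, 12.0% risen and 10.7% fallen. The number called in chp2D, 19, was 11 without WT replicate 3 and 12 without chp2D replicate 2 or 3. Both splits rested on the scaling of the libraries: with FPKM as deposited, 14 rose and 11 fell in mit1D, and 7 rose and 10 fell in chp2D. With quantile normalization 13 rose and 8 fell in chp2D. The 3 libraries of the deletion and the 3 of WT did not overlap for 37 of 37 called genes in clr1D, 35 of 35 in clr2D, 36 of 39 in clr3D, 26 of 27 in mit1D and 17 of 19 in chp2D. These genes were called from the same libraries, so the separation largely follows from the call and is no separate support for it. The share among all called genes of the table was not counted.

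The clr deletions had most of their rises within 50 kb of an end. By number, mit1D and chp2D had most of theirs farther in, where most of the tested genes lie. Within 50 kb of the left end 13 of 16 tested genes rose in clr1D, 13 in clr2D, 10 in clr3D, 3 in mit1D and 1 in chp2D, and none fell. Within 50 kb of the right end 10 of 19 rose in clr1D, 10 in clr2D and 9 in clr3D, and none of the 19 fell in these strains. There 3 rose and 2 fell in mit1D, and 1 rose and 2 fell in chp2D. The median log2 fold change within 50 kb was 0.39, 0.38 and 0.21 in clr1D, clr2D and clr3D at the left end, and 0.21, 0.23 and 0.18 at the right end. It was 0.09 in mit1D and -0.03 in chp2D at the left end, and 0.03 in mit1D and -0.01 in chp2D at the right.

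From 50 to 100 kb the picture was different. Among 31 genes of the left end 8 rose in clr1D, 7 in clr2D, 5 in clr3D, 4 in mit1D and 3 in chp2D, while 2 fell in clr3D, 4 in mit1D and 1 in chp2D. Among 28 genes of the right end 5 rose and 1 fell in clr1D, 4 rose and 1 fell in clr2D, 9 rose and 4 fell in clr3D, and 9 rose and 2 fell in both mit1D and chp2D. As shares, the mit1D rises were 18.8% within 50 kb and 12.9% farther in at the left end, and 15.8 and 32.1% at the right. Those of chp2D were 6.25 and 9.68% at the left and 5.26 and 32.1% at the right. Of all genes tested, 14.7% rose in mit1D and 12.0% in chp2D. The split at 50 kb was chosen with these results in view and carries no test of its own.

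**Figure D1:**
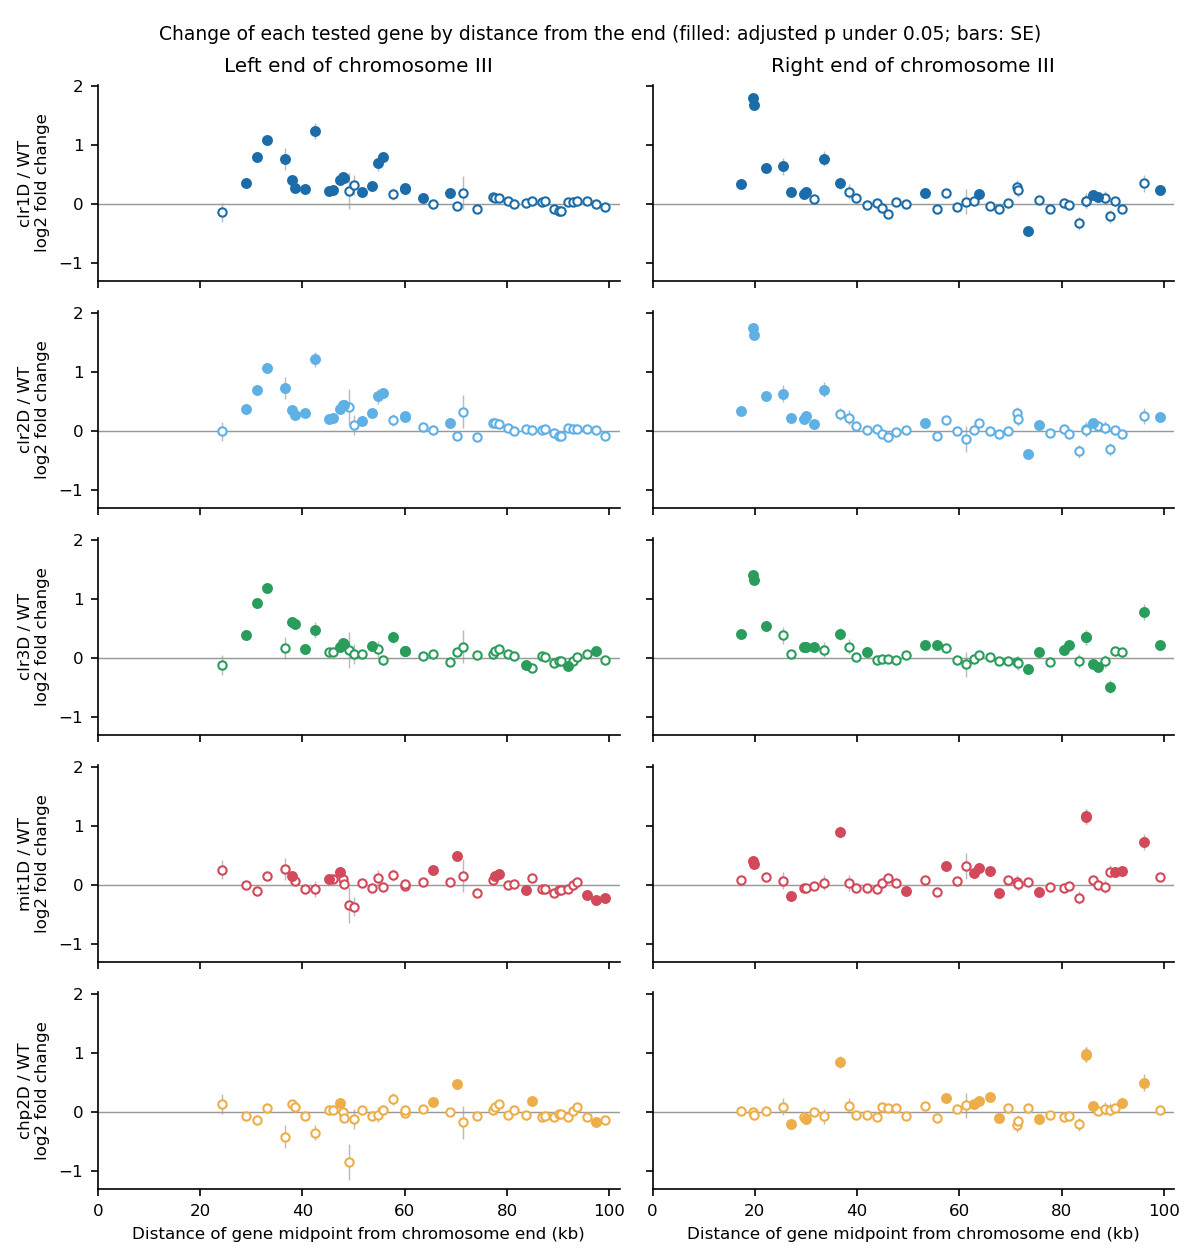
Log2 fold change against WT (y axis) of every tested gene against the distance of its midpoint from the chromosome end in kb (x axis), 1 row per deletion, left end and right end; filled points passed an adjusted p under 0.05 and bars are SE. In clr1D the 10 rises within 50 kb of the right end and the 13 within 50 kb of the left end include the largest of each end, and the smallest of them lie within the scatter of genes farther inward, while the largest mit1D and chp2D values at the right end lie between 30 and 100 kb.

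Lists from elsewhere in the genome were counted in the same fit. Chromosomes I and II had 117 tested genes at most 100 kb from an end. Of these, clr1D had 31 risen and 14 fallen, clr2D 29 and 8, clr3D 44 and 11, mit1D 31 and 19, and chp2D 24 and 24. Of 1127 tested genes of chromosome III farther than 100 kb from its ends, clr1D had 106 risen and 81 fallen, clr2D 81 and 49, clr3D 165 and 162, mit1D 153 and 148, and chp2D 115 and 128. The differences between these lists and the ends of chromosome III were not tested. Whether reads were counted by strand is not stated, so genes that overlap may share reads, and 32 genes at the left end and 33 at the right overlap another gene of the table. Nested genes had nearly equal recovered reads. The lowest clr1D library had 34138 for rpl902 and 34229 for SPNCRNA.1103, which contains it. For SPCC70.08c and SPNCRNA.1292 it had 2220 and 2282. Such genes are not separate measurements, and the counts of called genes include them. Among the 29 tested genes that overlap no other gene, 13 rose in clr1D, 13 in clr2D, 12 in clr3D, 2 in mit1D and 2 in chp2D, and 1 fell in each strain but chp2D, where none did. In the same order of strains, the rises were 44.8, 44.8, 41.4, 6.90 and 6.90% of these genes. Of all genes tested, 9.31, 7.31, 14.9, 14.7 and 12.0% rose, so the shares in mit1D and chp2D were below those of the whole table. The genes without overlap still include similar copies at the 2 ends. Among those that rose in clr1D and clr2D are SPCP20C8.01c, SPCP20C8.02c, SPCP20C8.03, meu3, SPCC569.01c, SPCC569.03 and meu19. Reads that fit both copies may therefore still be shared in this set.

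**Figure D2:**
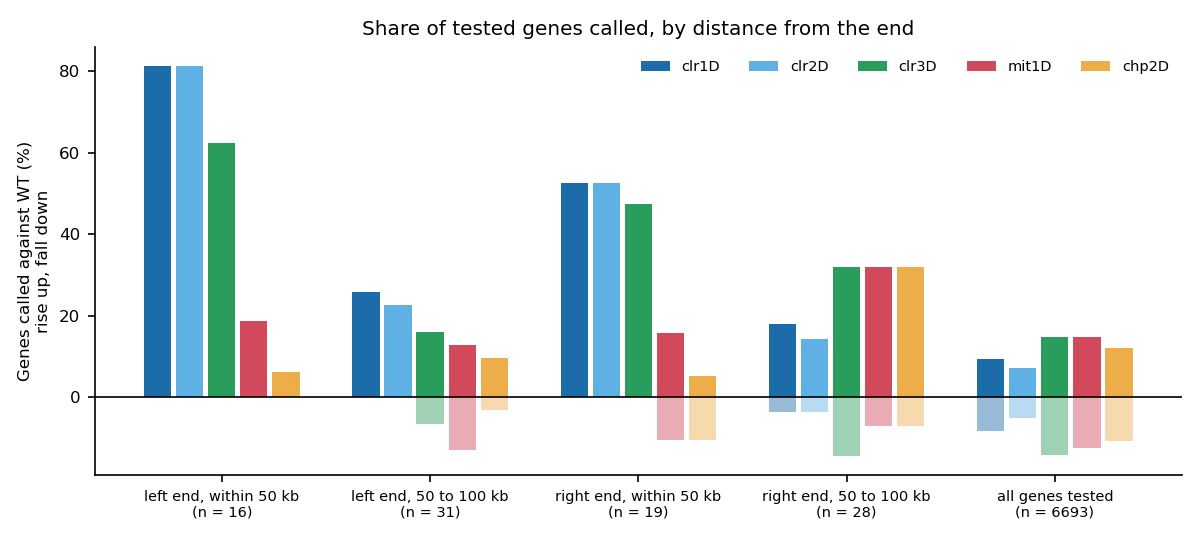
Share of tested genes that rose (upward bars) or fell (paler, downward bars) against WT, in percent, for each deletion, by end and distance, with all 6693 genes tested at the right. Within 50 kb of the left end 81.2% rose in clr1D and clr2D and 62.5% in clr3D, against 9.31, 7.31 and 14.9% of all genes tested.

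At the left end 13 of 47 tested genes rose in all 3 clr deletions, where 3.45% of all genes tested did, and 11 of them were called in neither mit1D nor chp2D, a pattern of 1.85% of all genes tested. The 3 comparisons share the WT libraries. The group starts 28.9 kb from the end with SPCP20C8.01c and includes SPCP20C8.02c, the pseudogene SPCP20C8.03, the non-coding RNAs SPNCRNA.1096, SPNCRNA.1097, meu3, SPNCRNA.1100 and SPNCRNA.453, the glyoxylase gene hsp3101, the peptidase gene SPCC757.05c and cox14, a gene for assembly of cytochrome c oxidase. Of these, cox14 overlaps SPNCRNA.453 and hsp3101 overlaps SPNCRNA.1100, and their values moved together. The left-end genes that follow in numbers were taken by the rule given under the processing, except SPCP20C8.01c, SPNCRNA.1099, rnc1 and the members named by counts, which were chosen after their values were seen. At the right end SPCC569.05c, nnk1, mug170, spx2, tmp1 and sac32 lie outside that rule as well.

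SPCP20C8.02c (III 30561 to 31740), an uncharacterized protein gene, had 12.3, 12.7 and 12.6 scaled FPKM in clr1D, 11.97, 11.8 and 11.3 in clr2D, with 15.04, 13.1 and 13.4 in clr3D. It had 6.55, 5.68 and 6.56 in mit1D and 5.97, 5.95 and 6.44 in chp2D, against 7.72, 6.06 and 6.67 in WT. Every clr library lay above every library of the other groups. The log2 fold change was 0.80 ± 0.07 in clr1D (SE; adjusted p = 9.93e-07), 0.71 in clr2D and 0.93 in clr3D. In mit1D and chp2D it was -0.10 and -0.13, and neither passed. The level in clr3D was above the mean of clr1D and clr2D by 0.18 ± 0.06 (adjusted p = 0.0305).

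The pseudogene SPCP20C8.03 (III 32624 to 33393) reached 26.3, 24.5 and 24.7 in clr1D, 27.6, 24.5 and 22.8 in clr2D, with 29.2, 25.9 and 25.9 in clr3D. It stood at 13.7, 12.03 and 12.5 in mit1D and 11.98, 11.0 and 12.9 in chp2D, against 11.6, 11.1 and 11.3 in WT. It was 2.22-fold higher in clr1D, 2.21-fold in clr2D and 2.39-fold in clr3D than in WT (adjusted p = 1.4e-08, 2.32e-08 and 8.22e-09). The clr libraries again did not overlap those of WT, mit1D or chp2D. In mit1D the log2 fold change was 0.16 ± 0.07 (adjusted p = 0.105).

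The non-coding RNA meu3 (III 41985 to 42728), named for its rise during meiosis, separated clr3D from clr1D and clr2D. It had 6.11, 5.13 and 7.17 in clr1D, 6.43, 5.45 and 6.14 in clr2D, with 2.92, 3.07 and 3.61 in clr3D. It had 1.73, 1.75 and 2.17 in mit1D and 1.47, 1.21 and 1.42 in chp2D, against 1.39, 2.42 and 2.34 in WT. The 3 levels did not overlap: clr1D and clr2D were highest, clr3D stood between, and the remaining groups were low. The log2 fold change against WT was 1.24 ± 0.13 in clr1D, 1.22 ± 0.13 in clr2D and 0.48 ± 0.13 in clr3D (adjusted p = 8.74e-06, 1.32e-05 and 0.0139). The clr3D level was below the mean of clr1D and clr2D by 0.75 on the log2 scale (log2 fold change -0.75 ± 0.12, adjusted p = 0.000122). The clr3D rise over WT was not called without WT replicate 1 (adjusted p = 0.0691) or without clr3D replicate 3 (adjusted p = 0.0605). It was also not called in the fit of only the groups compared (adjusted p = 0.0794). In chp2D meu3 was not called here. It was called lower there with a replicate block over all libraries (log2 fold change -0.35, adjusted p = 0.0401) and without WT replicate 1 (-0.52, adjusted p = 0.00715).

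Of the 47 tested genes of the left end 6 were called as rises in clr1D and clr2D and not called in the other 3 deletions, a pattern shown by 1.76% of all genes tested. They lay between 36.5 and 68.8 kb from the end, among them SPCC757.06 (III 55579 to 56029), an uncharacterized protein gene that overlaps no other. Its levels were 15.6, 13.995 and 13.5 in clr1D and 12.3, 11.8 and 14.1 in clr2D. They were 8.04, 6.87 and 7.96 in clr3D, 7.54, 7.12 and 8.26 in mit1D and 8.11, 8.50 and 7.29 in chp2D, against 8.56, 7.06 and 7.81 in WT. The clr3D libraries lay within the range of mit1D, chp2D and WT, or just beside it, and the clr1D and clr2D libraries above all of them. SPCC757.06 was 1.84-fold higher in clr1D and 1.63-fold in clr2D than in WT (adjusted p = 6.26e-06 and 8.99e-05). Set against the mean of clr1D and clr2D, clr3D was lower, at -0.75 ± 0.07 on the log2 scale (adjusted p = 2.28e-06).

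The small gene new22 and the non-coding RNA SPNCRNA.452, both weakly expressed, had the same calls. SPNCRNA.452 averaged 2.50 ± 0.425 in clr1D, 2.24 ± 0.383 in clr2D, 1.39 ± 0.136 in clr3D, 1.34 ± 0.234 in mit1D and 1.08 ± 0.125 in chp2D, against 1.16 ± 0.289 in WT (SD, n = 3 each). The gene new22 averaged 2.77 ± 0.963 in clr1D, 2.61 ± 0.382 in clr2D, 1.46 ± 0.381 in clr3D, 1.63 ± 0.373 in mit1D and 0.632 ± 0.253 in chp2D, against 1.18 ± 0.33 in WT. For both, clr3D was below the mean of clr1D and clr2D (log2 fold change -0.49 ± 0.11, adjusted p = 0.00275 for SPNCRNA.452, and -0.58 ± 0.16, adjusted p = 0.00956 for new22). The rise of new22 was not called in clr1D without clr1D replicate 2 (adjusted p = 0.0519), nor in clr2D without clr2D replicate 3 (adjusted p = 0.0624) or without WT replicate 3 (adjusted p = 0.0776).

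SPCC1884.01 (III 36972 to 38788) and the RNA SPNCRNA.1096, which overlaps it, were highest in clr3D. SPNCRNA.1096 had 42.3, 41.2 and 44.7 in clr1D, 43.7, 41.1 and 43.3 in clr2D, 55.5, 52.5 and 50.9 in clr3D, 37.3, 37.3 and 37.1 in mit1D and 36.3, 36.6 and 39.1 in chp2D, against 35.9, 34.9 and 35.1 in WT. The clr3D libraries lay above all others, and clr3D exceeded the mean of clr1D and clr2D by 0.30 ± 0.03 for SPNCRNA.1096 (adjusted p = 6.72e-06) and by 0.22 ± 0.04 for SPCC1884.01 (adjusted p = 0.00101). SPCC1884.01 was also called in mit1D, at a log2 fold change of 0.16 ± 0.05 (adjusted p = 0.0247). That call was lost without WT replicate 3 (adjusted p = 0.114), without any 1 of the mit1D replicates (adjusted p = 0.0579, 0.0547 and 0.0696) and with FPKM as deposited (adjusted p = 0.0698).

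The glyoxylase gene hsp3101 (III 47325 to 48577) had 17.7 ± 0.862 in clr1D, 17.3 ± 0.692 in clr2D, 15.2 ± 1.51 in clr3D, 13.5 ± 0.23 in mit1D and 12.5 ± 1.06 in chp2D, against 12.5 ± 0.348 in WT. It rose in the 3 clr deletions and passed in neither of the others. The RNA SPNCRNA.1099, which overlaps hsp3101 and SPNCRNA.1100 and may share reads with them, was the one gene at either end that rose in all 5 deletions. That pattern was shown by 0.837% of all genes tested. Its log2 fold changes were 0.41, 0.38, 0.18, 0.22 and 0.16 in clr1D, clr2D, clr3D, mit1D and chp2D, the last with adjusted p = 0.038.

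The transporter gene SPCC757.11c (III 69195 to 71282) showed the other pattern. It had 26.3, 28.3 and 28.3 in clr1D, 26.1, 25.8 and 27.7 in clr2D, 27.8, 33.7 and 30.1 in clr3D, 39.1, 40.2 and 41.1 in mit1D and 39.8, 38.6 and 40.4 in chp2D, against 27.2, 27.6 and 29.5 in WT. The mit1D and chp2D libraries lay above all others. The log2 fold change was 0.50 ± 0.05 in mit1D and 0.48 ± 0.05 in chp2D (adjusted p = 1.26e-05 and 2.4e-05). Nearby rnc1, an RNA-binding protein gene, rose in the same strains by 0.25 and 0.17 and was not called in the clr deletions.

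Among the outermost genes of the left end 3 non-coding RNAs were low in every group, while SPCP20C8.01c, which lies between them, was expressed. SPNCRNA.1094 stood below 1 scaled FPKM in all 18 libraries and was not tested, and SPNCRNA.449 was at 0 in most of them. SPNCRNA.1095 averaged 1.71 ± 0.384 in clr1D, 1.98 ± 0.561 in clr2D, 1.76 ± 0.514 in clr3D, 2.56 ± 0.302 in mit1D and 2.27 ± 0.496 in chp2D, against 1.96 ± 0.137 in WT, and no deletion passed. All 3 RNAs have an identical second match on chromosome III in ASM294v3, so their levels are uncertain. The most abundant genes of this end, the ribosomal protein genes rpl35 and rpl902 and the RNA SPNCRNA.1103 that contains rpl902, passed in no deletion. In the lowest WT library SPNCRNA.1103 had 45815 recovered reads and rpl902 45704. The level and calls of SPNCRNA.1103 are therefore not separate from those of rpl902. With the replicate block over the 12 paired libraries rpl902 and SPNCRNA.1103 were called lower in clr1D (adjusted p = 0.0443 and 0.0387). With FPKM as deposited rpl35, rpl902 and SPNCRNA.1103 were called lower in mit1D (adjusted p = 0.0101, 0.0319 and 0.0303), and with quantile normalization SPNCRNA.1103 was called lower in clr3D, mit1D and chp2D (adjusted p = 0.0266, 0.00372 and 0.0105). The 3 genes had means of 2796, 1009 and 527 in WT, and their log2 fold changes lay between -0.14 and -0.03.

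**Figure D3:**
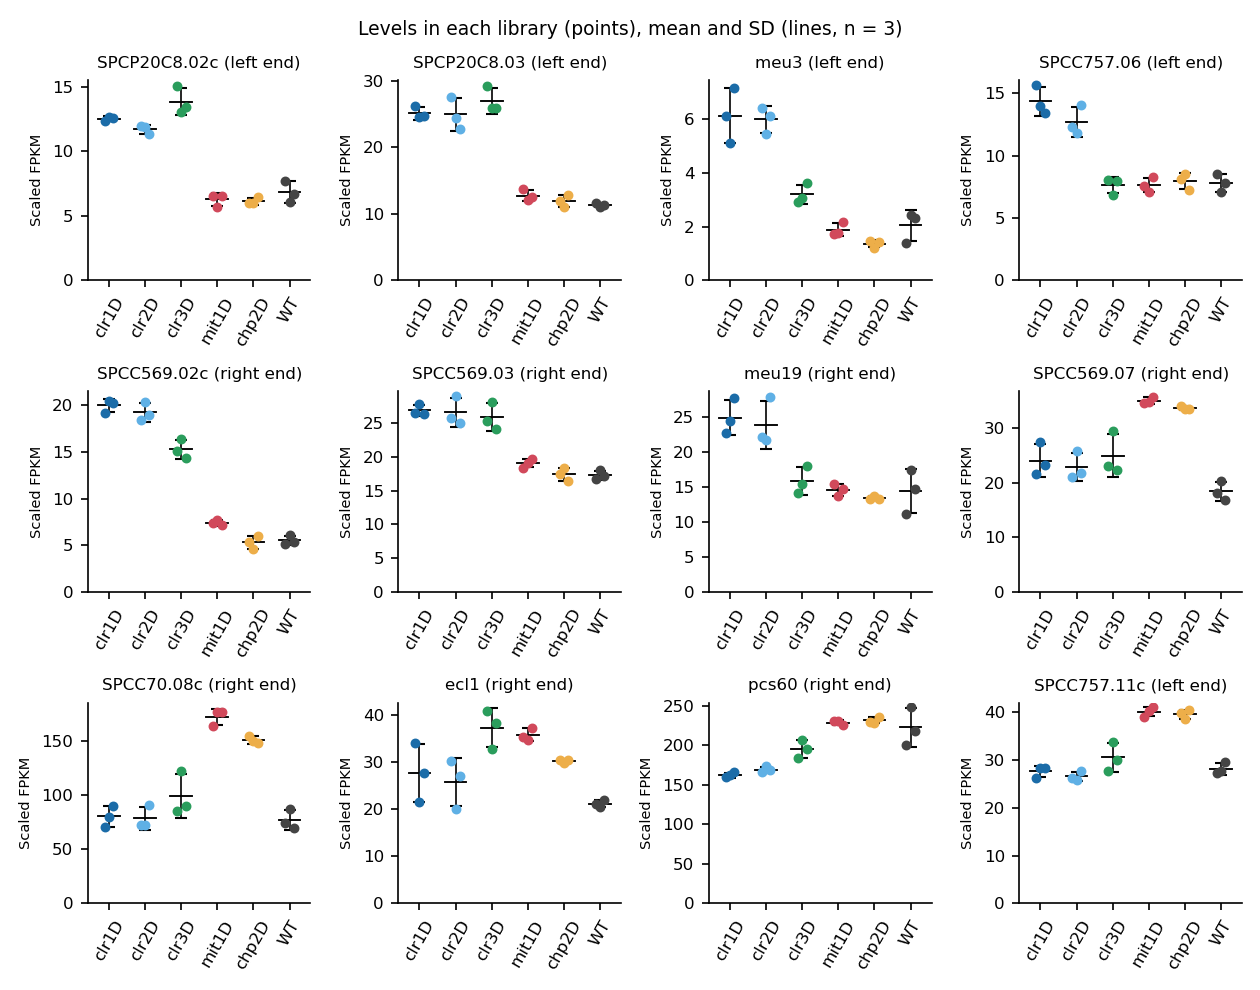
Scaled FPKM of 12 named genes in each library (points), with the mean and SD of 3 replicates (lines), deletions first and WT at the right. SPCP20C8.02c, SPCP20C8.03, SPCC569.02c and SPCC569.03 are high in clr1D, clr2D and clr3D, meu3, meu19 and SPCC757.06 are highest in clr1D and clr2D, SPCC70.08c, SPCC569.07 and SPCC757.11c are highest in mit1D and chp2D, and pcs60 is lowest in clr1D and clr2D.

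The largest changes of either end were those of SPCC569.02c and the RNA SPNCRNA.1298 at the right end. SPCC569.02c (III 2432505 to 2433520), an uncharacterized protein gene 19.9 kb from the end, had 19.2, 20.5 and 20.3 in clr1D, 18.4, 20.3 and 19.0 in clr2D, with 15.1, 16.4 and 14.4 in clr3D. It had 7.33, 7.71 and 7.15 in mit1D and 5.36, 4.64 and 6.03 in chp2D, against 5.17, 6.09 and 5.38 in WT. The levels formed steps: clr1D and clr2D overlapped each other at the top, clr3D lay below them, mit1D stood just above WT, and chp2D overlapped WT. SPCC569.02c was 3.61-fold higher in clr1D than in WT (log2 fold change 1.68 ± 0.07, adjusted p = 1.16e-10), 3.47-fold in clr2D (1.63 ± 0.07), 2.76-fold in clr3D (1.32 ± 0.07) and 1.33-fold in mit1D (0.36 ± 0.07, adjusted p = 0.0021). In chp2D the log2 fold change was -0.05 ± 0.07. Against the mean of clr1D and clr2D, clr3D was lower, at -0.34 ± 0.06 on the log2 scale (adjusted p = 0.000608).

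SPNCRNA.1298 (III 2432823 to 2433573) overlaps SPCC569.02c over 92.9% of its length, and its values followed those of that gene. It averaged 26.4 ± 0.896 in clr1D, 25.4 ± 1.35 in clr2D, 19.9 ± 1.37 in clr3D, 9.47 ± 0.325 in mit1D and 6.87 ± 0.84 in chp2D, against 6.88 ± 0.7 in WT (SD, n = 3 each). Its clr1D rise of 1.80 ± 0.07 on the log2 scale (adjusted p = 6.62e-11) was the largest among the genes of both ends. Whether the reads come from one transcript or from both cannot be told apart in these values.

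Set against each other, mit1D and chp2D differed in these 2 genes alone among the 94, where 0.164% of all genes tested were called, 0.0896% higher in mit1D and 0.0747% lower. SPNCRNA.1298 was higher in mit1D than in chp2D by a log2 fold change of 0.42 ± 0.07, and SPCC569.02c by 0.41 ± 0.07 (adjusted p = 0.0288 for both). The calls depended on the setting: 1 gene was called in the fit of only the groups compared, 0 with quantile normalization or with voom on recovered reads, and 0 without any 1 of the mit1D replicates or without chp2D replicate 1 or 2.

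SPCC569.03 (III 2429987 to 2431575), an uncharacterized protein gene next to it, had 26.6, 27.9 and 26.4 in clr1D, 25.7, 29.1 and 25.1 in clr2D, 25.3, 28.2 and 24.1 in clr3D, 18.4, 19.0 and 19.6 in mit1D and 17.5, 18.4 and 16.5 in chp2D, against 16.8, 18.03 and 17.1 in WT. Every clr library was above every library of the other groups. The rises were 1.56-fold in clr1D, 1.54-fold in clr2D and 1.495-fold in clr3D (adjusted p = 2.88e-06, 5.18e-06 and 9.16e-06), and clr3D did not pass against the mean of clr1D and clr2D (-0.05 ± 0.05). The outermost gene SPCC569.01c (III 2434691 to 2436530) had 19.2 ± 0.492 in clr1D, 18.9 ± 0.211 in clr2D, 20.01 ± 0.164 in clr3D, 15.8 ± 0.583 in mit1D and 14.9 ± 0.603 in chp2D, against 14.8 ± 0.461 in WT. Its rises were small and uniform, at log2 fold changes of 0.35, 0.34 and 0.41 with an SE of 0.04.

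The non-coding RNA meu19 (III 2419051 to 2419799) had 22.7, 24.4 and 27.7 in clr1D, 22.1, 21.6 and 27.8 in clr2D, 14.1, 15.3 and 17.99 in clr3D, 15.3, 13.7 and 14.7 in mit1D and 13.2, 13.7 and 13.2 in chp2D, against 11.1, 17.4 and 14.6 in WT. The clr1D and clr2D libraries lay above all others, and clr3D overlapped WT. It rose in clr1D and clr2D (log2 fold change 0.77 ± 0.13 and 0.70 ± 0.13, adjusted p = 0.000594 and 0.00156). In clr3D the value was 0.14 ± 0.13 (adjusted p = 0.438), and clr3D was below the mean of clr1D and clr2D (-0.59 ± 0.11, adjusted p = 0.000618). This is the order seen in its left-end counterpart meu3, at a higher level.

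SPCC569.04 (III 2427078 to 2427622) lies wholly within the spermidine transporter gene SPCC569.05c. It averaged 27.6 ± 6.48 in clr1D, 27.0 ± 3.61 in clr2D, 22.5 ± 1.63 in clr3D, 18.1 ± 2.68 in mit1D and 18.1 ± 0.313 in chp2D, against 17.1 ± 2.9 in WT, and passed in clr1D and clr2D (log2 fold change 0.65 and 0.63, SE 0.14 each). In clr3D the value was 0.39, not called here (adjusted p = 0.0552) but called with a replicate block over the 12 paired libraries (adjusted p = 0.00518). SPCC569.05c rose by less in the same strains, by 0.21 and 0.23, and fell in mit1D and chp2D, with log2 fold changes of -0.19 and -0.20 (adjusted p = 0.0297 and 0.0252).

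**Figure D4:**
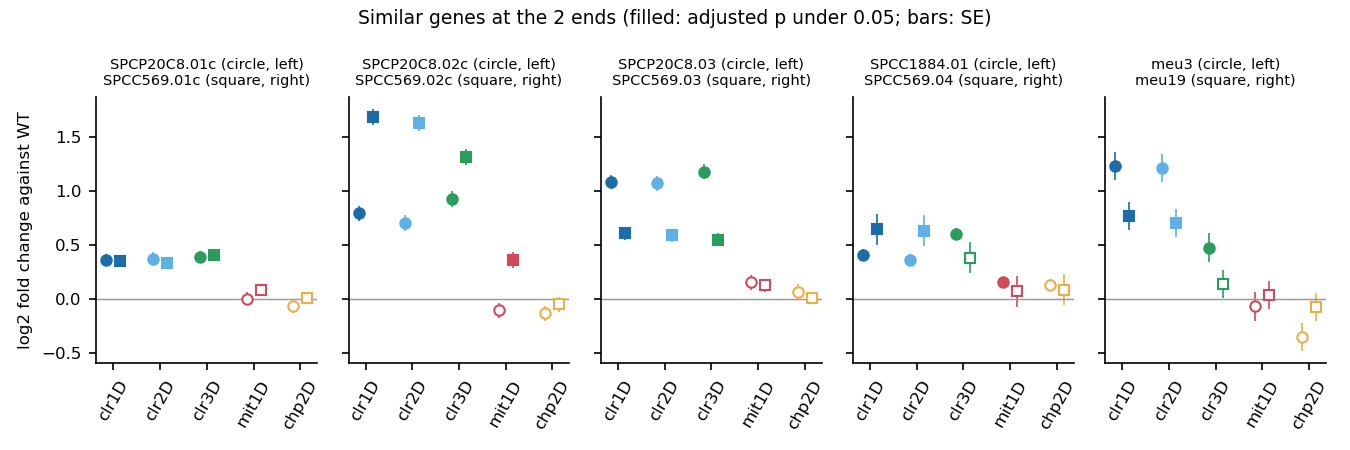
Log2 fold change against WT (y axis; bars, SE) in each deletion for 5 pairs of similar genes, circles for the left-end gene and squares for the right-end gene; filled symbols passed an adjusted p under 0.05. In clr1D the values are 0.36 and 0.35 for the outermost pair, 0.80 and 1.68 for the second, 1.09 and 0.61 for the third and 1.24 and 0.77 for meu3 and meu19.

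Set side by side, the outermost pair had similar values at both ends, and the pairs next to it did not. The outermost copies are 99.6% identical, so reads may fit both, and their similar values are not fully separate measurements. The outermost pair, SPCP20C8.01c and SPCC569.01c, had log2 fold changes of 0.36 and 0.35 in clr1D. In clr2D the pair had 0.38 and 0.34, and in clr3D 0.39 and 0.41. In the second pair the right-end gene SPCC569.02c changed more, with 0.80 and 1.68 in clr1D. In the third pair the left-end pseudogene changed more, with 1.09 for SPCP20C8.03 and 0.61 for SPCC569.03 in clr1D. The differences between copies were not tested, and on the log2(scaled FPKM + 1) scale a low gene such as meu3 shows less than its ratio of means, which was 2.99 in clr1D for meu3 and 1.73 for meu19.

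At the right end 9 of 47 tested genes rose in both mit1D and chp2D, where 10.3% of all genes tested did, and 1 of them lay within 50 kb of the end. Both comparisons share the WT libraries. That gene is SPCC569.07 (III 2414916 to 2417388), which encodes an aromatic aminotransferase. It had 21.6, 27.5 and 23.2 in clr1D, 21.1, 25.8 and 21.8 in clr2D, 23.1, 29.5 and 22.3 in clr3D, 34.7, 34.8 and 35.8 in mit1D and 34.2, 33.6 and 33.6 in chp2D, against 18.2, 20.3 and 16.9 in WT. The mit1D and chp2D libraries lay above all clr libraries, and these above WT. It was 1.90-fold higher in mit1D and 1.83-fold in chp2D than in WT (adjusted p = 1.46e-05 and 3.56e-05). The rise in clr1D (log2 fold change 0.36 ± 0.10, adjusted p = 0.0202) was not called without clr1D replicate 2 (adjusted p = 0.0967), WT replicate 1 (adjusted p = 0.0533) or WT replicate 3 (adjusted p = 0.0876). In clr2D the adjusted p was 0.0686, and 0.00155 with a replicate block over the 12 paired libraries.

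The largest of these rises was that of SPCC70.08c (III 2367804 to 2368636), a methyltransferase gene 84.7 kb from the end. It had 164, 177 and 177 in mit1D and 155, 150.2 and 148 in chp2D, against 74.1, 87.0 and 69.3 in WT. The libraries of both strains lay well above WT, at 2.25-fold in mit1D and 1.97-fold in chp2D (log2 fold change 1.16 ± 0.12 and 0.97 ± 0.12, adjusted p = 9.23e-06 and 6.68e-05). In clr1D it had 71.0, 79.6 and 90.4 and in clr2D 72.9, 72.6 and 91.1, which overlapped WT. In clr3D it had 85.2, 123 and 89.8, of which replicate 2 stood apart. The clr3D rise (0.35 ± 0.12, adjusted p = 0.0439) was not called without clr3D replicate 2 (adjusted p = 0.209), WT replicate 1 (adjusted p = 0.107) or WT replicate 3 (adjusted p = 0.153), nor with the replicate block (adjusted p = 0.0537). SPCC70.08c lies wholly inside the RNA SPNCRNA.1292 (III 2367506 to 2368757), whose log2 fold changes of 1.16 and 0.97 in mit1D and chp2D were the same to 2 decimals.

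The gene ecl1 (III 2354974 to 2358570), an extender of chronological lifespan, rose in clr3D, mit1D and chp2D. It covers 3597 bases in the deposited gene table but 820 in ASM294v3, so its values may include reads from outside the reference gene. It had 33.9, 21.5 and 27.5 in clr1D, 30.1, 20.1 and 26.9 in clr2D, 40.8, 32.7 and 38.2 in clr3D, 35.2, 34.6 and 37.3 in mit1D and 30.3, 29.8 and 30.4 in chp2D, against 21.1, 20.4 and 21.8 in WT. The 3 groups that passed lay above WT in every library, while clr1D and clr2D varied widely, each lowest in replicate 2. The log2 fold change was 0.79 ± 0.14 in clr3D, 0.73 ± 0.14 in mit1D and 0.50 ± 0.14 in chp2D (adjusted p = 0.000628, 0.00124 and 0.0164). In clr1D it was 0.35 ± 0.14 (adjusted p = 0.0882, and 0.0167 with the replicate block; 0.0149 without clr1D replicate 2). The neighbouring kinase gene nnk1 rose in mit1D and chp2D, by 0.23 and 0.15.

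Other genes of this group were hom2, an aspartate semialdehyde dehydrogenase gene, mug170, spx2 and the RNA SPNCRNA.1294 that overlaps spx2. The level of hom2 was 401 ± 24.4 in clr1D, 411 ± 13.8 in clr2D, 419 ± 35.4 in clr3D, 485 ± 10.3 in mit1D and 492 ± 3.42 in chp2D, against 411 ± 22.2 in WT. It rose by 0.24 ± 0.06 in mit1D and 0.26 ± 0.06 in chp2D (adjusted p = 0.00535 and 0.00367). The changes of mug170, an arrestin family gene, were 0.32 in mit1D and 0.24 in chp2D, and those of spx2 0.21 and 0.14.

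Falls were few. The acetyl-CoA ligase gene pcs60 (III 2378252 to 2380530) was the one gene called lower in all 3 clr deletions, a pattern of 1.60% of all genes tested. It had 159, 162 and 166 in clr1D, 166, 174 and 168 in clr2D, 184, 206 and 196 in clr3D, 230.3, 230.5 and 225 in mit1D and 230.1, 229 and 236 in chp2D, against 201, 249 and 218 in WT. The clr1D and clr2D libraries lay below all others, and clr3D overlapped WT. The log2 fold change was -0.45 ± 0.06 in clr1D, -0.39 ± 0.06 in clr2D and -0.18 ± 0.06 in clr3D (adjusted p = 4.61e-05, 0.000255 and 0.0245). The call in clr3D was lost without WT replicate 2 (adjusted p = 0.114), clr3D replicate 1 (adjusted p = 0.11) or clr3D replicate 3 (adjusted p = 0.0538). Without WT replicate 2, pcs60 was called higher in mit1D and chp2D, by 0.13 and 0.15 (adjusted p = 0.0459 and 0.0304).

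The RNA SPNCRNA.520 fell in clr3D, to 2.47 ± 0.132 against 3.85 ± 0.38 in WT (log2 fold change -0.48 ± 0.11, adjusted p = 0.00425). It overlaps nnk1 over 77.3% of its length, and nnk1 was not called in clr3D. In clr2D the fall of SPNCRNA.520 was not called here but was with quantile normalization, with voom on recovered reads and with a replicate block over all libraries (adjusted p = 0.0108, 0.0294 and 0.0417), and in clr1D with quantile normalization (adjusted p = 0.0339). Next to SPCC70.08c, the thymidylate kinase gene tmp1 and the nuclear export factor gene sac32, which overlap each other, rose in clr1D (0.16 and 0.12) and fell in clr3D (-0.11 and -0.15). Against the mean of clr1D and clr2D, clr3D was lower in both genes, by log2 fold changes of -0.25 and -0.26. The ribosomal protein gene rpp103, the most abundant gene of the right end at 710.2 ± 2.48 in WT, passed in no deletion, with log2 fold changes between -0.05 and 0.08.

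Between clr1D and clr2D no gene of either end was called, where 0.478% of all genes tested were called, 0.105% higher in clr1D and 0.374% lower. At an unadjusted p under 0.05 the count was also 0, and voom on recovered reads called 0. The replicate block called 0 as well, over all libraries and over the 12 paired ones, where 2 genes had an unadjusted p under 0.05. Log2 fold changes between these strains lay between -0.18 and 0.21 over the 94 genes. In the comparison of clr3D with the mean of clr1D and clr2D 16 genes were higher and 27 lower, beside 41.2% called, 20.8% higher and 20.4% lower among all genes tested. With FPKM as deposited the counts were 10 and 30. The lower genes lay mainly at the left end, 19 of 47 there and 8 of 47 at the right, and the higher ones at the right, 10 against 6 at the left. Of 27 tested non-coding RNAs 2 were higher in clr3D and 11 lower, and of 64 protein-coding genes 14 and 15.

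The mean of clr1D and clr2D was also set against the mean of mit1D and chp2D. Here 49 of the 94 genes were higher and 14 lower, where 56.8% of all genes tested were called, 28.6% higher and 28.1% lower. Within 50 kb of the left end 15 of 16 were higher and none lower. Within 50 kb of the right end 13 of 19 were higher and 2 lower, and from 50 to 100 kb of that end 6 of 28 were higher and 9 lower. At the extremes were SPNCRNA.1298, higher by a log2 fold change of 1.57 ± 0.05, and SPCC70.08c and SPNCRNA.1292, lower at a log2 fold change of -1.02 ± 0.09. Strain background and label series cannot be told apart from the deletions in this comparison.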

How the data were processed

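Total RNA of 18 cultures was measured in 6 genotypes. The authors deposited 1 FPKM value per gene and library. Per the submitters' processing notes, reads were aligned with GSNAP to build ASM294v2; the sources used here name neither the counting program nor its strand setting. FPKM times transcript length came in whole reads (100% of values within 0.1 read), which gave the depths. The table holds 3 further sample columns that were not used.

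Libraries were scaled by median ratios to a geometric-mean library (factors 0.971 to 1.067), taken from the 6484 genes whose FPKM reached 1 in every library. The 6693 genes that reached 1 in 3 or more libraries were tested on log2(scaled FPKM + 1) in limma 3.58.1 (R 4.3.3), using lmFit, contrasts.fit and eBayes with trend, 1 coefficient per genotype, 2-sided, Benjamini-Hochberg adjusted over all genes in each comparison. The added 1 shrinks changes of weakly expressed genes. The fit was tested on simulated data. Levels are means of scaled FPKM ± SD (n = 3), log2 fold changes carry SE, and positions are those of the table.

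Names, products, similar copies and printed stretches come from RefSeq ASM294v3, in which 95 of the 96 genes matched; 1262 of 1269 chromosome III genes share a start or an end with the table. Software was Python 3.11.15, pandas 2.3.3, NumPy 2.4.6 and matplotlib 3.10.9.

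Same-numbered libraries of WT, clr1D, clr2D and clr3D share a label series number and deviated together (correlations 0.250 to 0.704), so numbers pair these 12; mit1D and chp2D numbers do not pair (-0.134 to 0.125 with other groups). Per end, named genes were the outermost gene and the outermost tested one, the 10 largest changes among called genes, and the 3 most abundant in WT. Members and lists were chosen with earlier results of these data known. Alternatives were other scalings, filters and pseudocounts, voom on recovered reads, replicate blocks, smaller fits and leaving out each library.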

Additional observations from a re-analysis of the deposited data

How the results depend on the processing

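The count in clr3D was 23 in the fit of only the groups compared, against 39. Between mit1D and chp2D, where 2 genes were called, the count was 0 with quantile normalization, 0 with voom on recovered reads and 1 in the fit of only the groups compared. It was also 1 in a fit that took mit1D and chp2D as 1 label series, which their labels do not show. That alternative was chosen after seeing the data and held the same libraries as the fit of only the groups compared. The number called after leaving out 1 library was, for clr1D, 34 to 38; clr2D had between 30 and 34, clr3D between 30 and 39, mit1D between 20 and 26, and chp2D between 11 and 18. It was 0 to 0 between clr1D and clr2D, 36 to 43 for clr3D against the mean of clr1D and clr2D, 0 to 2 between mit1D and chp2D, and 61 to 66 between the mean of clr1D and clr2D and that of mit1D and chp2D; the cause was not tested. The main fit held no replicate block, although replicate numbers pair the libraries of WT and the clr deletions. A replicate block in the fit of all libraries also covered mit1D and chp2D, whose numbers do not pair. With it the counts were 42, 39, 44, 35 and 21 in clr1D, clr2D, clr3D, mit1D and chp2D. With the block over the 12 paired libraries, added after seeing the data, they were 45, 41 and 46 in clr1D, clr2D and clr3D, and of the called values of named genes those of SPCC70.08c and SPNCRNA.1292 in clr3D were lost. Of 64 called values of named genes 53 were called under every alternative, and the largest number lost to 1 alternative was 9, in the fit of only the groups compared.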
